A study of Mus musculus with 2 samples.

Results

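This account covers 7 of the 1638 miRNA features in a smRNA-seq table of mouse cells, namely Mir99a, Mir99b, Mir100, Mir125a, Mir125b-1, Mir125b-2 and AC165361.1, a feature on the strand opposite Mirlet7e. They were chosen by name and position, with their reads in both libraries already known, so every difference between the libraries is given as a description. There was 1 library of mESCs and 1 library of germ cells from E15.5 male embryos, both labelled wild-type. The mESCs were of the E14 line, and the methods describe naive, feeder-free culture with LIF and kinase inhibitors. The supplement calls this library mESC, but calls the RNA-seq libraries of the same line naive mESC. Whether the naive culture applies to this library is therefore not settled by its name. The germ cells have the background C57Bl/6J, and the methods describe embryos from females with an Oct-4/GFP transgene, which marks germ cells of the developing gonad. The labels call these cells primordial germ cells and the supplement calls them prospermatogonia, the name used here. How many embryos were pooled is not given in the sources used here.

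A miRNA is cut from a hairpin precursor, and its seed, bases 2 to 8 of the mature strand, directs it to target transcripts. The miR-99/100 and miR-125 families are old animal miRNAs that lie beside a let-7 gene in clusters that were copied during vertebrate evolution. The miR-125 family descends from lin-4, a regulator of developmental timing in worms. The let-7 family is known for promoting differentiation and for being held back in pluripotent cells by LIN28, which blocks processing of the precursor. The miR-99/100 family is known for targeting Mtor and other genes of growth signalling.

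The mouse genome has 3 copies of the cluster, and the seeds of their 5p arms are shown because they define which members can act on the same targets. The sequences are those of RefSeq on GRCm38, where 6 of the 7 features had a mature sequence under their name, and the seed is in capitals. For AC165361.1 the arm of Mirlet7e is shown.
mmu-miR-99b-5p: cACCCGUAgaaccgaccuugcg
mmu-miR-99a-5p: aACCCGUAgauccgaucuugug
mmu-miR-100-5p: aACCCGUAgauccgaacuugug
mmu-miR-125a-5p: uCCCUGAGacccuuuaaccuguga
mmu-miR-125b-5p: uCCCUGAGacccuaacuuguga
mmu-let-7e-5p: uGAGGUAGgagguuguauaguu
mmu-let-7a-5p: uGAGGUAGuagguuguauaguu
mmu-let-7c-5p: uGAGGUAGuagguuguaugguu

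The miR-99/100 arms share the seed ACCCGUA. Outside the seed, miR-99a-5p and miR-100-5p differ at 1 of 22 positions, whereas miR-99b-5p differs from each of them at 4. The miR-125 arms share the seed CCCUGAG and their first 13 bases. The arm miR-125b-5p is cut from both Mir125b-1 and Mir125b-2 and is identical in both, so that a read of this arm cannot be assigned to either gene by its sequence. Their 3p arms, shown because they could tell the genes apart, differ at 5 of 22 positions, and capitals again mark bases 2 to 8.
mmu-miR-125b-1-3p: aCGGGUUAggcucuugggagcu
mmu-miR-125b-2-3p: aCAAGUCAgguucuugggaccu

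Among 2202 miRNA genes of GENCODE vM21, the 5p arms of Mir99a, Mir99b, Mir100, Mir125a and Mirlet7e were each found in a single gene. The let-7a-5p arm was found in Mirlet7a-1 and Mirlet7a-2, and the let-7c-5p arm in Mirlet7c-1 and Mirlet7c-2. How the authors counted reads with several matches is not given in the sources used here.

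The chromosome 17 copy is compact and lies within the gene Spaca6 on the plus strand. Mir99b (chr17:17830188-17830257) is intronic and Mir125a (chr17:17830803-17830887) overlaps an exon of a Spaca6 transcript. The copy spans 700 bases from Mir99b to the end of Mir125a. AC165361.1 (chr17:17830343-17830459) lies between them on the minus strand, 85 bases after Mir99b and 343 bases before Mir125a. GENCODE vM21 names the same position Gm25927, and places Mirlet7e inside it on the plus strand from 17830352 to 17830444. The Mirlet7e hairpin is shown because its name is not among the features of the table, and capitals mark its 5p and 3p arms.
Mirlet7e hairpin: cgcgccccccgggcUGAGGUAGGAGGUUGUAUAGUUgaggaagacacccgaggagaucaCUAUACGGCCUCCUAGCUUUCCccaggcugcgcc

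On chromosome 9, Mir100 (chr9:41531425-41531504) and Mir125b-1 (chr9:41581926-41582002) lie in introns of 3110039I08Rik, which RefSeq names Mir100hg, with 50421 bases between them. Mir100 also lies opposite an exon of the lincRNA Gm48742, and Mir125b-1 lies in an exon of the sense intronic RNA Gm28119. On chromosome 16, Mir99a (chr16:77598936-77599000) and Mir125b-2 (chr16:77646273-77646343) lie in introns of Mir99ahg with 47272 bases between them, and the end of Mir125b-2 overlaps an exon of C130023A14Rik. Mirlet7a-2 and Mirlet7c-1 are the let-7 genes of these copies. All positions are those of the table, and 6 of the 7 features have exactly the position of a miRNA gene in GENCODE vM21 on GRCm38. The exception is Mir125a, which GENCODE places within the listed feature, from 17830812 to 17830879.

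The authors deposited log2 values, from which whole reads were recovered. The library totals that follow, if the values are log2 RPM (reads per 1000000), were 449643 reads for mESCs and 2869578 reads for prospermatogonia, of which 110455 and 155237 lay on miRNA features. A single read was worth 2.22 RPM in mESCs and 0.348 RPM in prospermatogonia, and a count of 0 allows up to 3 reads, which is 6.67 RPM and 1.05 RPM. Intervals in parentheses are 95% intervals that cover counting error only, since PCR copies are not independent molecules. As a check of the labels, 6 features of the Mir290 cluster, known for their high level in mESCs, held 59347 RPM in mESCs and 1758 RPM in prospermatogonia. The sum leaves out Mir291b, which is also listed. A set of 5 X-linked features known from male germ cells, not all of those listed, held 24.5 RPM in mESCs, with 3 at 0 reads, and 5286 RPM in prospermatogonia. No difference below has a replicate check, because each cell type had 1 library. In such samples fewer cells of a type and less RNA per cell cannot be told apart.

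Most reads of the 7 features lay on the chromosome 17 copy in both libraries. Its level in RPM as deposited was close to equal in them, but its share of the reads on miRNA features was higher in prospermatogonia. The chromosome 9 copy was much lower in prospermatogonia. The chromosome 16 copy as a whole, with 4 reads in mESCs and 12 in prospermatogonia, had no detectable difference. The chromosome 17 features together had 973 reads in mESCs (2164 RPM) and 5721 reads in prospermatogonia (1994 RPM). The ratio of prospermatogonia to mESC was 0.921 (0.861 to 0.986) with the values as deposited. Of all reads on miRNA features, the chromosome 17 copy held 0.881% in mESCs (0.827% to 0.938%) and 3.69% in prospermatogonia (3.59% to 3.78%). The 4 features on chromosomes 9 and 16 had 82 reads in mESCs (182 RPM) and 23 reads in prospermatogonia (8.02 RPM). At their mESC level, 523 reads would have been counted at the depth of the prospermatogonia library. Their sum was 22.8-fold higher in mESCs (14.4 to 36.0), and 78 of its 82 mESC reads lay on chromosome 9.

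In mESCs the chromosome 17 copy thus held 92.2% of the member reads (90.5% to 93.7%), and in prospermatogonia 99.6% (99.4% to 99.7%). For each read on the other copies it had 11.9 reads in mESCs and 249 in prospermatogonia. The difference between these ratios was 21.0-fold (13.1 to 33.5), or 4.39 on the log2 scale (3.72 to 5.06), and does not depend on how the libraries are scaled. It was 18.8-fold (11.8 to 30.1) without AC165361.1. Without Mir125b-1 and Mir125b-2, whose 5p arm is shared, it was 14.2-fold (7.23 to 27.9).

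**Figure D1:**
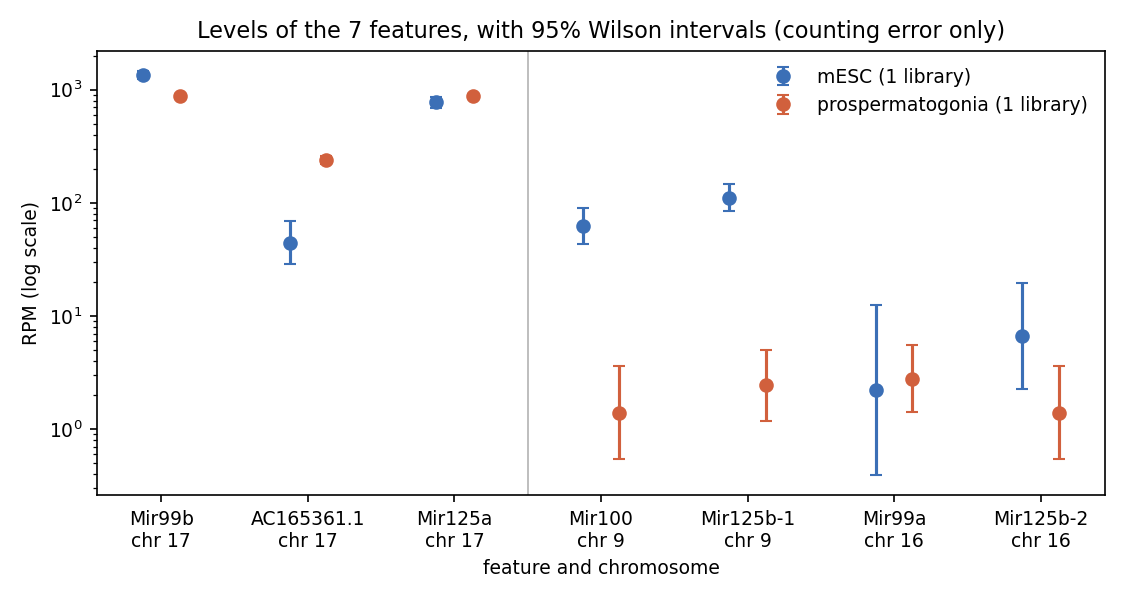
The level of each of the 7 features in RPM on a log axis, with the mESC library in blue and the prospermatogonia library in orange. Bars are 95% Wilson intervals of the reads, and the vertical line parts the chromosome 17 features on the left, at 44.5 RPM or more in both libraries, from the chromosome 9 and 16 features on the right, of which none exceeded 2.79 RPM in prospermatogonia.

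The level of all miRNAs has to be kept in view beside these ratios. Of the library totals given above, 24.6% lay on miRNA features in mESCs and 5.41% in prospermatogonia. Ratios of RPM as deposited carry this difference, because RPM divides by the whole total. Ratios of single features were taken as log2 of the RPM in prospermatogonia over that in mESCs, with a pseudocount of 1 RPM added to each, which understates the change of low features. A filter of 10 RPM, to be reached in either library, left 203 features. Of these, 9.85% had a ratio of 2-fold or more towards prospermatogonia and 80.8% a ratio of 2-fold or more towards mESCs, and the median log2 ratio was -2.52. Of the 7 features described here 5 passed this filter. Among them AC165361.1 was at least 2-fold higher, Mir100 and Mir125b-1 were at least 2-fold lower, and Mir99b and Mir125a differed by less. Mir99a and Mir125b-2 did not reach 10 RPM in either library. When the libraries were scaled so that the median ratio of 111 features was 1, 2.37 was added to every log2 ratio before the pseudocount. The shares of all features then became 22.2% higher and 36.5% lower, with a median of -0.28. Under this scaling the chromosome 17 copy turned from -0.12 to 2.25 on the log2 scale, while the chromosome 9 and 16 copies went from -4.35 to -2.11. Relative to the median of all features, the chromosome 17 copy stood 2.40 higher with the values as deposited and 2.53 higher with this scaling. The other copies stood at -1.83 relative to the median in both cases.

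**Figure D2:**
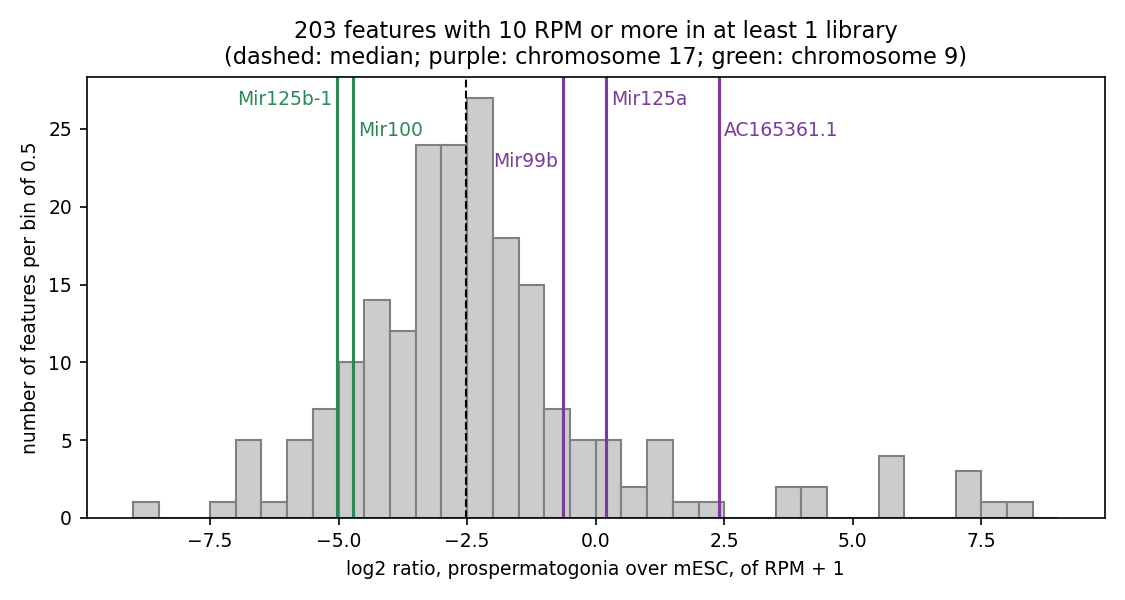
The number of features per bin of the log2 ratio, prospermatogonia over mESC, of RPM plus the pseudocount, for the 203 features that reached 10 RPM in either library. Vertical lines mark the 5 members that passed this filter, with the chromosome 17 features (purple) to the right of the dashed median of -2.52 and the chromosome 9 features (green) to its left.

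Mir99b carried most reads of its family in both libraries. It had 607 reads in mESCs (1350.0 RPM) and 2508 reads in prospermatogonia (874 RPM), which made up 0.550% (0.508% to 0.595%) and 1.62% (1.55% to 1.68%) of all reads on miRNA features. Among all features it ranked 29 by reads in mESCs and 13 in prospermatogonia. The RPM was 1.54-fold higher in mESCs (1.41 to 1.69), and the log2 ratio of -0.63 was exceeded by 32 of the 203 features. This direction turns with the scaling, as the log2 ratio is 1.74 with the median ratio.

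Mir100, whose arm has the same seed, had 28 reads in mESCs (62.3 RPM) and 4 reads in prospermatogonia (1.39 RPM). It was 44.7-fold higher in mESCs (16.4 to 122), and the log2 ratio of -4.72, which was -2.94 with the median ratio, was lower than those of 177 of the 203 features. At its mESC level, 179 reads would have been counted in the prospermatogonia library. Mir99a had 1 read in mESCs (2.22 RPM) and 8 reads in prospermatogonia (2.79 RPM), a ratio of 1.25 (0.204 to 7.72), so that a difference was not detectable at this depth. The counting intervals of the ratios of Mir100 and Mir99a, whose 5p arms differ at 1 position, did not overlap. These ratios rest on 1 mESC read of Mir99a and 4 prospermatogonia reads of Mir100. How often such intervals part for other pairs of features was not tested.

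By seed, Mir99b held 95.4% of the reads of the miR-99/100 family in mESCs (93.5% to 96.8%) and 99.5% in prospermatogonia (99.2% to 99.7%). The family as a whole had 636 reads in mESCs and 2520 reads in prospermatogonia, and was 1.61-fold higher in mESCs (1.48 to 1.76) as deposited but turned to a log2 ratio of 1.68 with the median ratio. The number of Mir99b reads for each Mir100 read was 28.9-fold higher in prospermatogonia (10.1 to 82.8). For each Mir99a read it was 0.516-fold that in mESCs (0.0645 to 4.14), an interval that holds both directions.

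Mir125a was the other main feature of the chromosome 17 copy. It had 346 reads in mESCs (769 RPM) and 2527 reads in prospermatogonia (881 RPM), or 0.313% (0.282% to 0.348%) and 1.63% (1.57% to 1.69%) of the miRNA reads. The ratio of 1.14 (1.02 to 1.28) corresponds to a log2 ratio of 0.19, which 25 of the 203 features exceeded, and which became 2.57 with the median ratio and 2.38 with scaling to all miRNA reads. It ranked 35 in mESCs and 12 in prospermatogonia, where it stood next to Mir99b.

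Mir125b-1 had 50 reads in mESCs (111 RPM) and 7 reads in prospermatogonia (2.44 RPM), and was 45.6-fold higher in mESCs (21.1 to 98.6). Its log2 ratio of -5.03, which was -3.04 with the median ratio, was lower than those of 183 of the 203 features. Mir125b-2 had 3 reads in mESCs (6.67 RPM) and 4 reads in prospermatogonia (1.39 RPM), a ratio of 0.209 (0.0524 to 0.834) that turned to a log2 ratio of 0.10 with the median ratio. The division of reads between both genes is uncertain because of the shared 5p arm. Together they had 53 reads and 11 reads, and were 30.7-fold higher in mESCs (16.2 to 58.2) as deposited. Their joint log2 ratio of -4.62 was -2.51 with the median ratio. The number of Mir125a reads for each read of Mir125b-1 or Mir125b-2 was 35.2-fold higher in prospermatogonia (18.2 to 68.0). Among 62 features with an arm identical in another RefSeq miRNA gene, 31 had no read in either library (50.0%), against 188 of 437 features without such an arm (43.0%).

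By seed, Mir125a held 86.7% of the reads of the miR-125 family in mESCs (83.0% to 89.7%) and 99.6% in prospermatogonia (99.2% to 99.8%). The level of the whole family was 887 RPM in mESCs and 884 RPM in prospermatogonia, a ratio of 0.997 (0.897 to 1.11) that became a log2 ratio of 2.37 with the median ratio. The sum as deposited thus joined a Mir125a with a ratio above 1 and Mir125b genes with ratios far below it.

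AC165361.1, opposite Mirlet7e, was the feature with the largest ratio among the 7. It had 20 reads in mESCs (44.5 RPM) and 686 reads in prospermatogonia (239 RPM), and was 5.37-fold higher in prospermatogonia (3.46 to 8.35) as deposited. It took 0.0181% (0.0117% to 0.0280%) and 0.442% (0.410% to 0.476%) of all reads on miRNA features, and ranked 132 in mESCs and 30 in prospermatogonia. Its log2 ratio of 2.40 was exceeded by 13 of the 203 features, and became 4.77 with the median ratio and 4.58 with scaling to all miRNA reads. Relative to its neighbours, it was 8.30-fold (5.28 to 13.1) higher in prospermatogonia when set against Mir99b, and 4.70-fold (2.97 to 7.43) when set against Mir125a.

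The strand on which these reads lay is not known, since whether strand was used in the counting is not given in the sources used here. Reads of Mirlet7e and of a transcript from the other strand therefore cannot be told apart. The table holds 6 features that lie opposite a RefSeq mature miRNA, and in none of these cases is the miRNA itself listed by name. Of the 6 features 5 had reads. The highest was CT010508.1, opposite Mir191, with 3391 reads in mESCs and 1592 in prospermatogonia. AC147162.1, opposite Mirlet7f-1, had no read in either library. Among all 1638 features, 1353 had no read in mESCs and 1321 had none in prospermatogonia. Among the 437 features whose arms occur in no other RefSeq miRNA gene, 188 had no read in either library (43.0%). Whether the 6 features differ from others in this respect was not tested.

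The division of the chromosome 17 reads differed between the libraries. Mir99b held 62.4% in mESCs (59.3% to 65.4%) and 43.8% in prospermatogonia (42.6% to 45.1%). Mir125a held 35.6% (32.6% to 38.6%) and 44.2% (42.9% to 45.5%), and AC165361.1 held 2.06% (1.33% to 3.15%) and 12.0% (11.2% to 12.9%). The counting intervals of both libraries did not overlap for any of the 3 features. These shares divide the same total and are not independent, and how often this holds for other features was not tested. For each read of Mir125a there were 1.75 reads of Mir99b in mESCs and 0.992 in prospermatogonia. These are shares of reads rather than of molecules, since small RNAs differ in how well adapters are ligated to them.

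**Figure D3:**
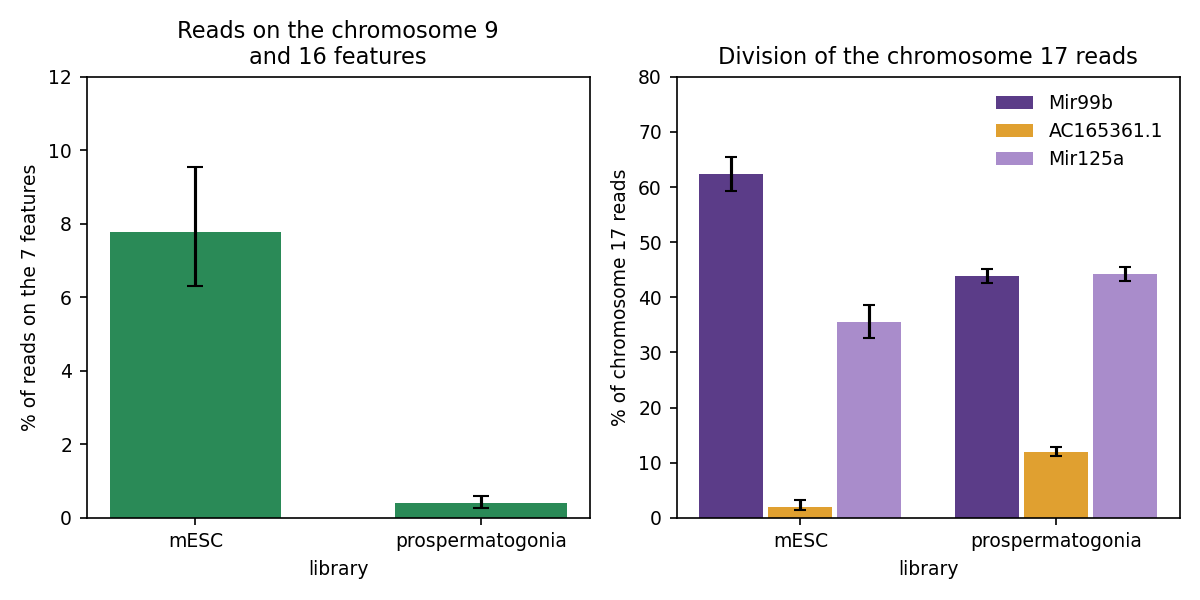
Left, the share of the reads on the 7 features that lay on the chromosome 9 and 16 features, 82 of 1055 reads in mESCs and 23 of 5744 in prospermatogonia. Right, the percentage of the chromosome 17 reads on Mir99b, AC165361.1 and Mir125a in each library, where Mir99b leads with 62.4% in mESCs and is near Mir125a at 43.8% in prospermatogonia, and error bars are 95% Wilson intervals.

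The chromosome 9 copy accounted for most of the difference seen outside chromosome 17. It had 78 reads in mESCs and 11 in prospermatogonia, and was 45.3-fold higher in mESCs (24.3 to 84.2) as deposited. Its log2 ratio of -5.17 was -3.06 with the median ratio and -3.24 with scaling to all miRNA reads. Mir100 held 35.9% of the mESC reads of this copy (26.1% to 47.0%) and 36.4% of those in prospermatogonia (15.2% to 64.6%), so that no shift between Mir100 and Mir125b-1 was detectable. The chromosome 16 copy had 4 and 12 reads, with a ratio of 0.470 (0.160 to 1.38) and, with the median ratio, a log2 ratio of 1.20. Of the reads outside chromosome 17, the chromosome 9 copy held 95.1% in mESCs (88.1% to 98.1%) and 47.8% in prospermatogonia (29.2% to 67.0%).

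**Figure D4:**
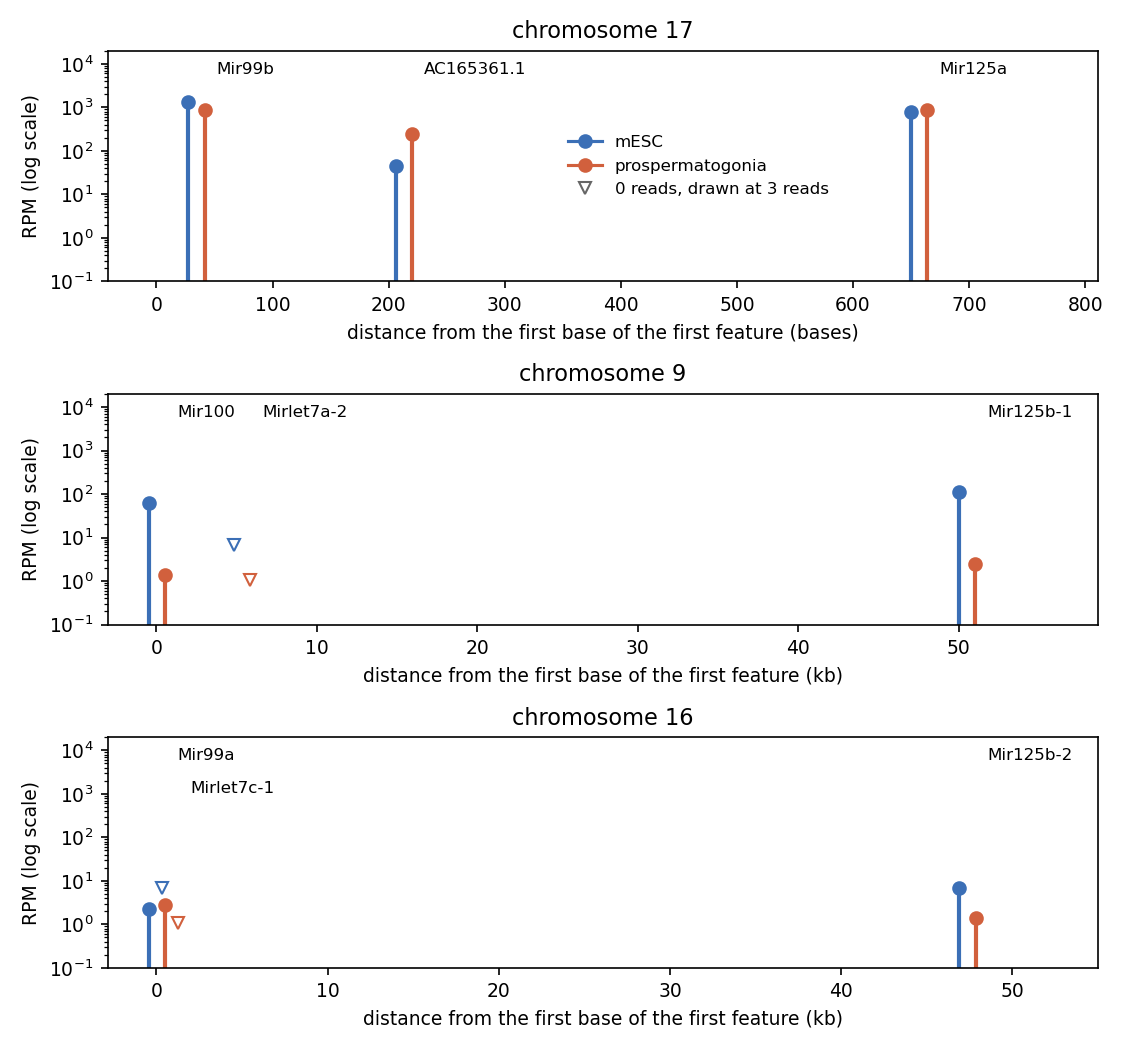
The 3 copies of the cluster, with the level of each feature in RPM on a log axis against its distance from the start of the copy, in bases for chromosome 17 and in kb for chromosomes 9 and 16. Marks of the mESC library (blue) and the prospermatogonia library (orange) are set slightly apart, open triangles stand for features without reads and are drawn at the level of 3 reads, and of the middle features only AC165361.1 on chromosome 17 has reads.

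Markers of other cell types are given with the values as deposited. A shared direction means little here, as 80.8% of the 203 features were at least 2-fold lower in prospermatogonia, with a median log2 ratio of -2.52. The mesenchyme and fibroblast list, with 7 features listed, held 8131 RPM in mESCs and 261 RPM in prospermatogonia, 31.2-fold more in mESCs (28.8 to 33.7), beside 45.3-fold for the chromosome 9 copy. Within this list 4 features in mESCs and 2 in prospermatogonia had more than 3 reads. Mir21 had 2215 and 486 reads and Mir143 had 1393 and 260 reads, while Mir199a-1 and Mir199a-2 were at 0 in both libraries. The blood and endothelium list of 4 features held 567 RPM in mESCs, all from Mir126, and 14.3 RPM in prospermatogonia, with Mir144 and Mir223 at 0 in both. The gonad soma list of 3 features held 643 RPM and 216 RPM. Its member Mir202 had 0 and 57 reads, whereas Mir140 had 623 and 194 RPM and Mir455 had 20.0 and 1.39 RPM. The part of other cells in these results was not tested.

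The let-7 genes and the Mir10 genes, relatives of the miR-99/100 family, are given for comparison. Of 14 let-7 and Mir10 genes, 12 were listed and 7 passed the filter, of which 6 were at least 2-fold lower, none at least 2-fold higher, and 1 between, a count near the 80.8% of all features that were at least 2-fold lower. Their median log2 ratio was -2.18, against -2.52 for all features that passed. With scaling to the median ratio 1 was at least 2-fold lower, 2 were at least 2-fold higher and 4 lay between, beside 36.5% lower and 22.2% higher among all features. Mirlet7a-2 and Mirlet7c-1, the let-7 genes of the chromosome 9 and 16 copies, had 0 reads in both libraries, as did Mirlet7a-1 and Mirlet7c-2, with which they share their 5p arms. The let-7 gene with most reads by name, Mirlet7i, had 196 reads in mESCs and 129 in prospermatogonia, and was 9.70-fold higher in mESCs (7.77 to 12.1). In prospermatogonia the 686 reads of AC165361.1 were more than those of any let-7 gene listed by name. Since the counting of reads with several matches is not given, let-7 genes with a shared 5p arm may be undercounted in this ranking.

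Mir10a and Mir10b, whose seed ACCCUGU resembles that of the miR-99/100 family, also had unlike ratios. Mir10a had 1270 and 304 reads and was 26.7-fold higher in mESCs (23.5 to 30.2). Mir10b had 250 and 1922 reads, with a ratio of 1.20 (1.06 to 1.37).

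The features most like the chromosome 17 members were sought by the distance between their log2(RPM + 1) values in both libraries. The nearest to Mir99b was Mir30d, at a distance of 0.20, with 619 and 2179 reads, followed by Mir30a and Mir298. The nearest to Mir125a was Mir423, at 0.37, with 330 and 3242 reads, followed by Mir10b and Mir30d. AC165361.1 had no close neighbour, and the nearest was Mir676 at 0.81, with 31 and 477 reads, followed by Mir5105 and Mir375. With 2 libraries such likeness rests on 2 values per feature.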

How the data were processed

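smRNA-seq libraries were made with the Illumina TruSeq Small RNA kit after size selection on a gel. The processing notes name Trim Galore 0.4.1, Bowtie and GRCm38, whereas the methods name piPipes and mm9. The authors deposited log2 values for 1638 features per library. The step that made them is not given in the sources used here, and they were taken as log2 RPM, the unit stated for RNA-seq. Values above the lowest one are whole multiples of a constant, within 0.0165 reads, which gave the reads. The lowest value, log2 of 0.9 reads, was set to 0 reads (1353 features in mESCs, 1321 in prospermatogonia).

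Log2 ratios used RPM with a pseudocount of 1 and a filter of 10 RPM in at least 1 library. With 1 library per cell type no test was run. Shares, levels and ratios have 95% Wilson intervals (of the read split between libraries for ratios), and intervals of differences between ratios are log odds ratio intervals. Alternatives were other pseudocounts, scalings, filters, a 4-fold threshold and other member sets, of which no pseudocount, plain differences of the deposited values and leaving out both Mir125b genes were chosen after seeing the data. Named are all members, the let-7 and Mir10 genes, features within 10 kb and the 3 nearest patterns per chromosome 17 member. Members and lists were chosen with earlier results of these data known. Computations were tested on simulated data. The tools were matplotlib 3.10.9 for plots and scipy 1.17.1, pandas 2.3.3 and numpy 2.4.6 for values, under Python 3.11.15. The mPGCLC library, read lengths and arms were not analysed here.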

Additional observations from a re-analysis of the deposited data

How the results depend on the processing

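No paired analysis was possible because each cell type has 1 library, and for the same reason no replicate could be left out. The log2 ratio of the chromosome 17 copy, -0.12, reversed to 2.25 with scaling to the median ratio, to 2.06 with scaling to all miRNA reads and to 0.19 as the median of its members, and was -0.27 without AC165361.1. The scalings raise every ratio by construction. That of the other copies, -4.35, was -2.11 and -2.29 under these scalings, -3.20 as the median of the members and -3.66 without Mir125b-1 and Mir125b-2, a setting chosen after seeing the data. The difference between both, 4.23 with the pseudocount, was 3.40 from the medians and 3.54 without Mir125b-1 and Mir125b-2, and stayed within its counting interval with pseudocounts of 0.1 and 5. The number of members at least 2-fold higher went from 1 to 3 under either scaling. Among all features this share went from 9.85% to 22.2% with the median ratio and to 20.2% with all miRNA reads. The number at least 2-fold lower went from 2 to 0 with a filter of 10 RPM in both libraries, since Mir100 and Mir125b-1 then drop out. In the log2 ratios of the 7 members, 5 members had no change of direction in any of the 5 settings. This count was largely fixed in advance. Another pseudocount or none cannot change a direction, and the scalings can only turn a negative ratio positive. Mir99b reversed to 1.74 and 1.56 under the 2 scalings, and Mir125b-2 to 0.10 with the median ratio. Depth limits the chromosome 9 and 16 features, which rest on 23 reads in prospermatogonia, and Mir99a and Mir125b-2, with 1 and 3 reads in mESCs.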
